A study of Homo sapiens with 41 samples.

Results

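Elongin A is the subunit of the trimeric Elongin complex that stimulates elongation by RNA polymerase II (RNAPII) in vitro. The clustered replication-dependent histone genes were examined in 3 genome-wide peak lists of Elongin A. They were taken as the protein-coding genes on chromosomes 1 and 6 with the symbols H1-1 to H1-6, or with H2AC, H2BC, H3C or H4C followed by a number, or with the older HIST1H, HIST2H or HIST3H names. This rule gave 65 of the 20176 protein-coding genes of GENCODE release 44 on GRCh37, the build of hg19. A gene was counted as having a peak when a peak overlapped the annotated gene with 1 kb on either side. H2BC7, H2BC8 and H4C6 have no entry in the annotation used and were not analysed here.

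All samples behind the lists were wild-type DLD1 cells, a human colon cancer cell line, that received no siRNA. CUT&RUN sequences the DNA that an antibody-tethered nuclease cuts free around a protein, here in permeabilized cells that had been fixed with formaldehyde. The goat antibody list stood for 2 CUT&RUN samples with 1 goat IgG control. The mouse antibody list stood for 1 CUT&RUN sample, and that of ChIP-seq for 1 sample with 1 input library. The labels tie a mouse IgG library to the mouse antibody list, whereas the methods of the study name goat IgG as the CUT&RUN control, so that the control behind the fold enrichments of that list is not certain. No label gives the cell-cycle stage of the cells. Each list gives 1 value per peak with no replicate error, so that differences between peaks, genes or lists could not be tested against replicate spread. Read totals are not part of the lists, and the depth is unknown.

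Replication-dependent histone genes supply the core histones H2A, H2B, H3 and H4 and the linker histone H1, which package newly made DNA during S phase. They are short, have no introns, and lie close together, many of them as divergent pairs that share a promoter region. Their mRNAs carry no poly(A) tail and end just past a conserved stem-loop, which is bound by the stem-loop binding protein SLBP and cleaved with the help of the U7 small nuclear ribonucleoprotein.

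This structure was looked for in the 65 genes. The representative transcript of each of the 65 had a single exon, with a length of 357 to 2224 bp and a median of 492 bp. The annotated gene, which set the window for peaks, was longer in some cases. It was 1 kb or more for 17 of the 65 genes, and up to 37610 bp. A stem-loop of 6 paired bases beginning with GG and a loop of 4 bases beginning with TT was found within 150 bases past the stop codon of 60 of the 65 genes, but of only 1 of 994 other single-exon protein-coding genes (0.101%). That gene was H3-4, itself a histone gene, whose symbol the rule did not take in. In the 60 genes the stem-loop began 23 to 68 bases past the stop codon, with a median of 36.5. The remaining genes were H3C6, H2BC10, H2AC11, H2AC15 and H4C13, for which these letters were not found in that window. The forms below are shown because they mark the genes as replication-dependent and because they differ by histone family. The sequences were read from GRCh37, 5′ to 3′ on the strand of the gene, with the paired bases of the stem in capitals and the loop in lower case.

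39 genes of the H1, H2A, H2B and H3 families: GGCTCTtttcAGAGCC
8 genes of the same 4 families: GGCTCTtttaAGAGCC
H2AC20: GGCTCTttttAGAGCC
8 H4 genes: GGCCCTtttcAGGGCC
4 H4 genes: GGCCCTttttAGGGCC

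All 12 H4 genes with a stem-loop had one of the last pair of forms, and none of the 48 genes of the other families did. Peaks of the goat antibody list covered the whole or part of 20 of the 60 stem-loops, those of the mouse antibody list 3 and those of the ChIP-seq list 5. At the transcript end, which lies close to most of the stem-loops, these lists had peaks at 20, 4 and 5 of the 65 genes. The shares of all protein-coding genes there were 0.922%, 0.114% and 0.0397%.

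Promoter sequences differed by family as well. RefSeq promoters on GRCh38.p14, from 250 bases before to 50 after the gene start, matched 60 of the 65 genes and were searched on both strands for 5 short motifs. Where the starts of a divergent pair are close, both windows hold largely the same bases, and a site can be counted for both genes. Most such pairs join an H2A and an H2B gene, so that the counts of these families are not independent. A CCAAT box was found in 51 of the 60 (85.0%) and in 34.6% of the 35116 promoters of the table, and a TATA box, TATAAA, in 40 (66.7%) and 11.5%. The CCAAT box was in all 6 H1, 16 H2A, 16 H2B and 11 H3 promoters matched, but in only 2 of 11 H4 promoters. ATTTGCA, the octamer recognised by POU2F1 without its last base, was found in 25 promoters, of which 12 were among the 16 H2B and 11 among the 16 H2A promoters. It was in 4.20% of all promoters. GGTCC, part of the H4 element recognised by HINFP, was in 10 of 11 H4 promoters, although it is common, at 46.3% of all promoters. AAACACA, part of the H1 box, was in all 6 H1 promoters and in 5.64% of all promoters. A match is a description of letters and not of a bound site.

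The sequences of 150 bases before the TSS of 4 H1 genes, as read from GRCh37 on the strand of the gene, are shown because, among the histone genes, the H1 family held the strongest Elongin A peaks of 2 lists and also genes without any peak. Capitals mark the AAACACA motif, the CCAAT box and the TATA box on either strand.

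H1-2 at chr6:26056699-26056848, minus strand: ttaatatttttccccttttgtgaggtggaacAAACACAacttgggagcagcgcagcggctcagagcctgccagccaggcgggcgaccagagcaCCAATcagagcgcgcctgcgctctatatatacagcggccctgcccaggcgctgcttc
H1-4 at chr6:26156407-26156556, plus strand: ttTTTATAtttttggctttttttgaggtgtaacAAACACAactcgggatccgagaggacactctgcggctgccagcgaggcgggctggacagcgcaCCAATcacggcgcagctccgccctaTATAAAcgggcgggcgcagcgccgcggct
H1-3 at chr6:26235216-26235365, minus strand: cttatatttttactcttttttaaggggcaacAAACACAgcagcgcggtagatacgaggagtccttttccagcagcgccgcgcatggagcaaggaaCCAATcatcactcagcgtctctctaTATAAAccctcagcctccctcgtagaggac
H1-6 at chr6:26108364-26108513, minus strand: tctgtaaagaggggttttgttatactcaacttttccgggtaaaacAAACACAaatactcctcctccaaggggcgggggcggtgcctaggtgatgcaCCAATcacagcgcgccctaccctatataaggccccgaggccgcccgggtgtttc

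The H1 box and the CCAAT box stood in the same order in all 4, including H1-6, the testis linker histone, which had no peak in any list. Thus these letters did not separate H1 genes with an Elongin A peak from those without one. Over all families, TATAAA was found in 28 of the 36 matched promoters of genes with a goat antibody peak and in 12 of the 24 without one, and ATTTGCA in 15 and 10, respectively. CCAAT was found in 30 of the 36 and 21 of the 24, GGTCC in 13 and 6, and AAACACA in 4 and 5. No difference was tested. Promoters of divergent pairs are not independent in these counts either.

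With the goat antibody, 41 of the 65 histone genes had a peak (63.1%, Wilson 95% interval 50.9 to 73.8%), while the share among all protein-coding genes was 21.7%. Annotated genes differ in length, and so do these windows. Counted over the coding sequence with 1 kb on either side, 38 histone genes had a peak, beside 15.3% of all protein-coding genes. With the mouse antibody, 15 of 65 had one (23.1%, 14.5 to 34.6%), beside 7.79% of all protein-coding genes. This count was 9, beside 4.22% of all protein-coding genes, with a q-value under 0.001, and 8, beside 6.30%, when a peak had to overlap the gene itself. In the ChIP-seq list, 11 of 65 had one (16.9%, 9.72 to 27.8%), beside 0.783% of all protein-coding genes. The intervals cover counting error only, and neighbouring histone genes are not independent, since 19 of the 39 goat antibody peaks at these genes touched the windows of more than 1 of them.

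**Figure D1:**
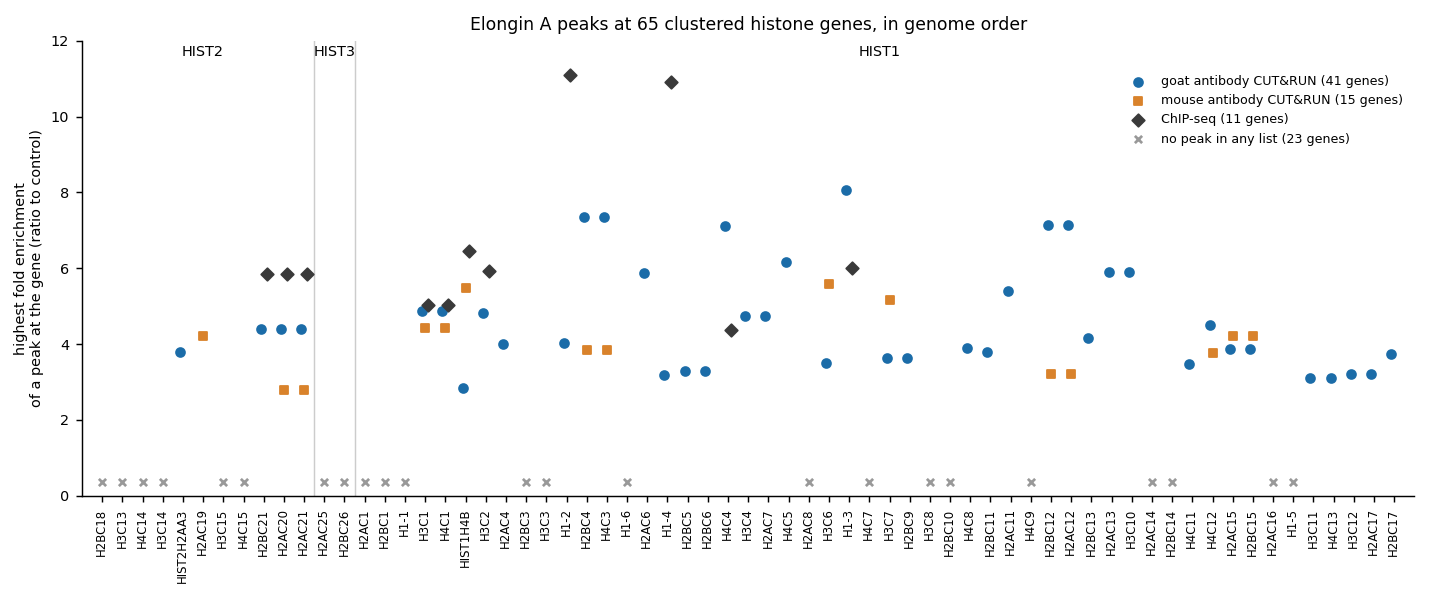
Highest fold enrichment (ratio to control, vertical axis) of a peak at each of the 65 genes, in genome order along chromosome 1 (HIST2, HIST3) and chromosome 6 (HIST1). Circles, squares and diamonds are the goat antibody, mouse antibody and ChIP-seq lists, and crosses near the bottom mark the 23 genes without a peak in any list; the 2 highest points, at H1-2 and H1-4, are ChIP-seq peaks.

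Distinct peaks at the histone genes made up 39 of 8720 in the goat antibody list (0.447%), 11 of 2338 in the mouse antibody list (0.470%) and 8 of 186 in the ChIP-seq list (4.30%). Their median fold enrichment was below that of the whole list in each case. The fold enrichment of a peak is the ratio of the signal at its summit to the local control background. Its median at the histone genes was 3.92 in the goat antibody list, where the whole list had 4.32, and 15 of the 39 peaks were above that. In the mouse antibody list the medians were 4.21 and 4.36, and in the ChIP-seq list 5.97 and 9.99. By fold enrichment, 4 of the goat antibody peaks at these genes and none of those of the other lists were above the percentile of 90 in their list. With a fold enrichment of at least 5 required, 11 of the 65 genes kept a goat antibody peak, beside 8.69% of all protein-coding genes, and 3 kept a mouse antibody peak, beside 2.35%. In the ChIP-seq list 10 of the 11 genes and 7 of the 8 peaks were kept, beside 0.768% of all protein-coding genes.

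The genes fell into a few patterns over the lists. A peak was found in all 3 lists at 5 genes, H3C1, H4C1, HIST1H4B (current symbol H4C2), H2AC20 and H2AC21. In the goat antibody and ChIP-seq lists alone there were 6 genes, in both CUT&RUN lists alone 9, in the goat antibody list alone 21, and in the mouse antibody list alone 1. The other 23 genes had no peak in any list. By family, the goat antibody list had a peak at 3 of 6 H1, 11 of 17 H2A, 10 of 16 H2B, 8 of 13 H3 and 9 of 13 H4 genes. The mouse antibody list had a peak at 5 H2A, 3 H2B, 3 H3 and 4 H4 genes and at none of the 6 H1 genes, and the ChIP-seq list at 3 H1, 2 H2A, 1 H2B, 2 H3 and 3 H4 genes. No difference between families was tested.

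Linker histone genes held the strongest peaks of the goat antibody and ChIP-seq lists at any of the 65 genes. At H1-3 (chromosome 6, 26234440 to 26235215, minus strand) the goat antibody list had 1 peak with a fold enrichment of 8.06 and a −log10 q-value of 13.5, rank 228 of the list. It spanned 26234944 to 26235242, with its summit 110 bp past the TSS in the coding sequence. The ChIP-seq list had an overlapping peak at H1-3 with a fold enrichment of 6.0 and its summit 229 bp past the TSS. Both lists therefore placed the peak over the coding sequence of this gene.

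At H1-2 (26055968 to 26056698, minus strand) the order was different. The ChIP-seq peak there was the strongest of the 8, with a fold enrichment of 11.1 and a −log10 q-value of 24.1. It covered 26055507 to 26056661, a width of 1155 bp that took in nearly the whole gene, and its summit was 167 bp past the TSS. The goat antibody list had a pair of narrow peaks that overlapped this interval, with fold enrichments of 4.02 and 2.76, but their summits were at the other end of the gene, 426 and 8 bp downstream of the transcript end. At H1-4 (26156557 to 26157343, plus strand) the ChIP-seq peak covered 26156634 to 26157229, with a fold enrichment of 10.9 and a summit 228 bp past the TSS. The goat antibody peak began past it, from 26157375 to 26158585, with a fold enrichment of 3.17 and a summit 452 bp upstream of the next gene, H2BC5. Of the 8 ChIP-seq peaks, the one at H1-4 was the only one that no goat antibody peak overlapped.

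The ChIP-seq summits in H1-4 and H1-3 were at nearly the same distance from the TSS, and the 32 bases around them share a run of 13 bases, marked in capitals. The summit of H1-2 is shown beside them. Each of the 3 sequences occurred once in GRCh37, and they are written on the strand of the gene. All 3 lie in coding sequence of the H1 family, and runs shared at other places of these genes were not counted. The run is a description of letters and not of a bound site.

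H1-4 at chr6:26156769-26156800, plus strand: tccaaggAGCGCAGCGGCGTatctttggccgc
H1-3 at chr6:26234970-26235001, minus strand: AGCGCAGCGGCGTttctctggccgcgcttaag
H1-2 at chr6:26056515-26056546, minus strand: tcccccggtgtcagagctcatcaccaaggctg

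The other 3 linker histone genes, H1-1, H1-5 and H1-6, had no peak in any list. The 2 other genes known mainly from testis, H2AC1 and H2BC1, a divergent pair that lies apart from the rest at 25723625 to 25727573, had none either.

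Among core histone genes, the strongest goat antibody peak was at an H4 gene. At H4C3 (26104161 to 26104565, plus strand) the list had a pair of peaks. The stronger one covered 26104192 to 26104676 with a fold enrichment of 7.34. Its −log10 q-value of 23.3 was the highest of the 39, and its summit was 189 bp past the TSS. The other covered 26103611 to 26103934, with 5.49 and the summit 348 bp upstream. The mouse antibody list had a peak at the upstream place only, with a fold enrichment of 3.83 and its summit 388 bp upstream. Both peaks were also counted for H2BC4, whose annotated gene is 37610 bp long and spans H4C3, whereas the goat antibody peaks next to its single-exon transcript had one summit 601 bp past the transcript end, with a fold enrichment of 4.80, and the other in the neighbouring H2AC6, with 3.92.

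H4C4 (26188938 to 26189340, minus strand) had a goat antibody peak of 7.11 with the summit 260 bp past the TSS and a ChIP-seq peak of 4.37 with the summit 297 bp past it. At H4C5 the goat antibody peak, of 6.17, was 1672 bp wide and had its summit 868 bp downstream of the transcript end. At H4C12 the goat antibody list had 4.49 with a summit 22 bp past the transcript end, and the mouse antibody list 3.77 with a summit 250 bp past it. These H4 genes thus differed in whether the summit lay in the coding sequence or past the end of the gene.

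HIST1H4B and the pair H3C1 and H4C1 had peaks in all 3 lists. At HIST1H4B (26027124 to 26027480, minus strand) the ChIP-seq peak, with a fold enrichment of 6.46, lay over the gene, with the summit 209 bp past the TSS. The goat antibody peaks, with 2.85 and 2.78, lay on either side, with summits 221 bp downstream and 254 bp upstream of the transcript, and the mouse antibody peak, with 5.49, had its summit 729 bp downstream. At H3C1 and H4C1 1 wide goat antibody peak contained a ChIP-seq peak of 5.04 with its summit in H3C1, 359 bp past the TSS, and overlapped a mouse antibody peak of 4.42 with its summit in H4C1, 72 bp past the TSS. The ChIP-seq and mouse antibody peaks did not overlap at either place.

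At the H3 genes, goat antibody peaks reached 5.90. At H3C2 the goat antibody peak had a fold enrichment of 4.83 and the ChIP-seq peak 5.93, with summits 194 and 307 bp past the TSS. At H3C7 the mouse antibody list had 5.15 and the goat antibody list 3.62, with summits 103 and 178 bp past the TSS. At H3C6 the order of the antibodies was the same, with 5.58 and 3.51. Both summits lay upstream of the single-exon transcript, at 853 and 837 bp, but inside the longer annotated gene of 3275 bp. The peak of the mouse antibody list at H3C6 was its strongest at any histone gene, at rank 288 of 2338. At H3C10 the goat antibody peak, of 5.90, had its summit 269 bp upstream of the TSS and also touched the window of H2AC13.

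H2A and H2B genes mostly shared peaks. At the divergent pair H2BC12 and H2AC12 the goat antibody list had 7.13 in a peak of 1213 bp that reached the end of H2BC12, with the summit 95 bp downstream of it, and 3.29 in a second peak in H2AC12, at the place where the mouse antibody list had 3.20. At H2AC15 and H2BC15 the goat and mouse antibody lists had 3.88 and 4.21, with summits 519 and 74 bp past the end of H2AC15. At H2AC11 the goat antibody peak, of 5.41, had its summit 779 bp past the transcript end. H2AC6 had a peak of 5.88 in that list, but its summit was 1365 bp past the end of the single-exon transcript, inside a longer annotated gene of 14972 bp. At H2AC4 the peak of 4.01 had its summit inside the gene, 365 bp past the TSS, and that of 3.33 was 146 bp upstream. On chromosome 1, H2BC21, H2AC20 and H2AC21 shared goat antibody peaks of 4.01 and 4.40 and a ChIP-seq peak of 5.85 with its summit in H2AC21. The mouse antibody list had a peak of 2.78 there, which was within reach of the H2AC20 and H2AC21 windows only.

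**Figure D2:**
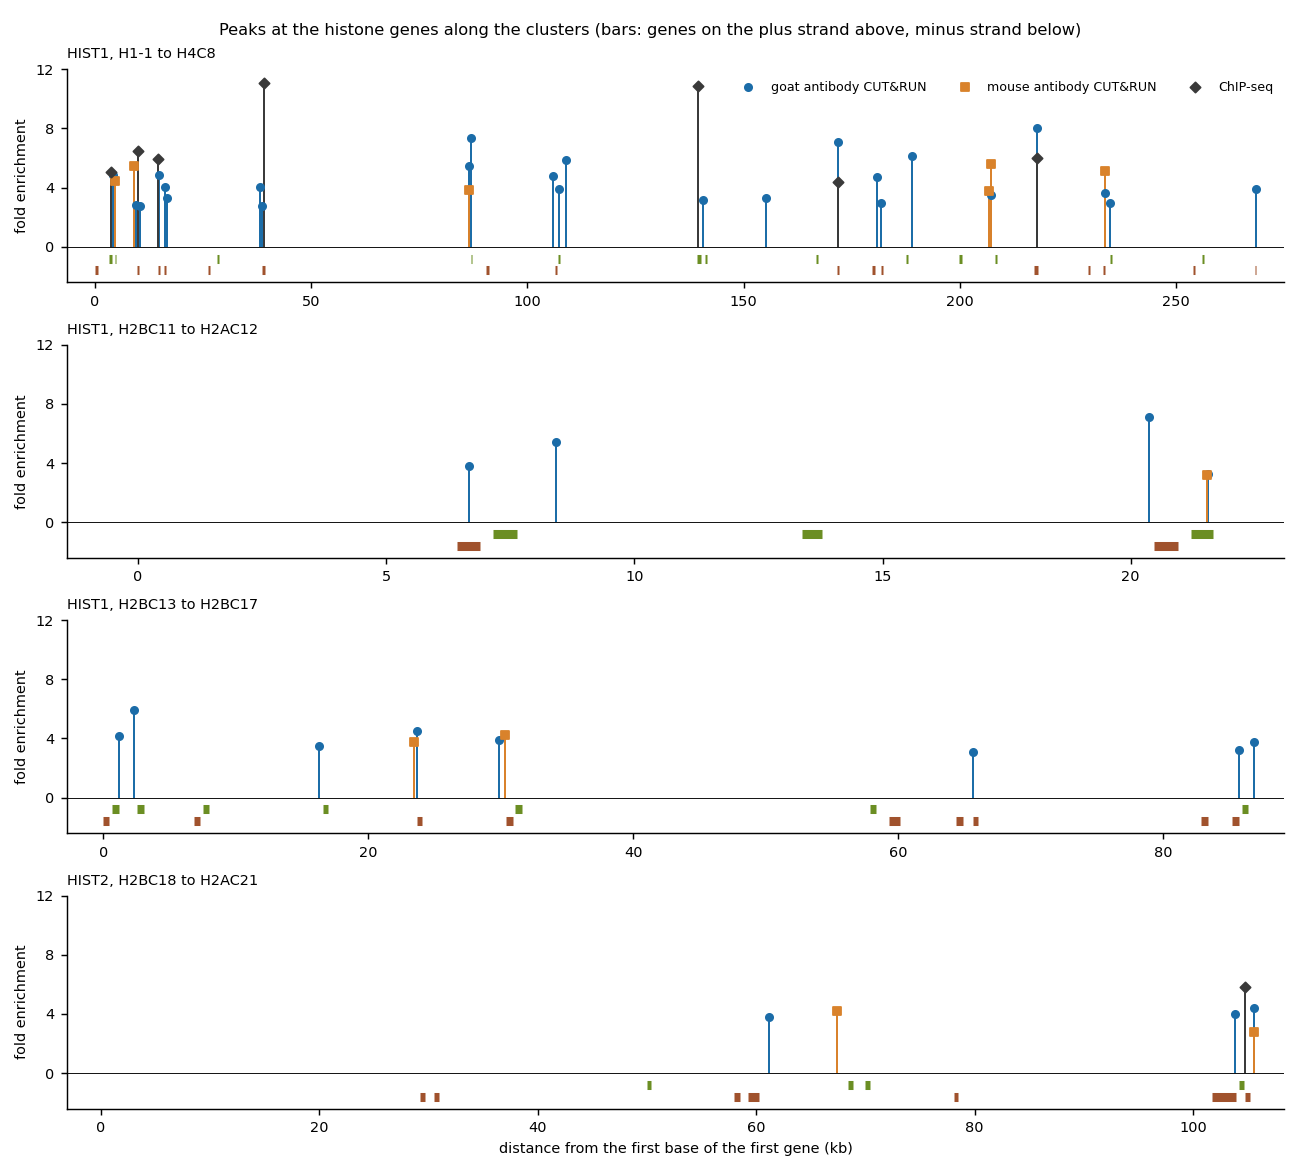
Fold enrichment (vertical axis) at the summit of each peak that touched a histone gene window, in 4 stretches, 3 of HIST1 on chromosome 6 and 1 of HIST2 on chromosome 1. The horizontal axis is the distance from the first gene in kb. Peaks that touched no histone gene window are not drawn, so that empty space between genes does not mean that a list had no peak there. Green and brown bars are the single-exon transcripts on the plus and minus strands; ChIP-seq peaks (diamonds) occur only in the first stretch of HIST1 and at the end of HIST2.

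Along chromosome 6, peaks lay at the histone genes more than between them. The HIST1 cluster, from the first to the last window, extended over 2140 kb, of which the windows of the 52 histone genes took up 10.0%. Of the peaks in this stretch, 36 of 54 in the goat antibody list, 9 of 14 in the mouse antibody list and 7 of 7 in the ChIP-seq list touched these windows. Among the 20 other protein-coding genes in the same stretch, 2 had a goat antibody peak, 1 a mouse antibody peak and none a ChIP-seq peak. One of the 2, ENSG00000282988, overlaps H3C4 and H2AC7 and shares their peaks, and the other, POM121L2, had a fold enrichment of 2.74. The mouse antibody peak was at ZNF391, with 5.97.

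The genes of HIST1 form 4 groups with gaps of over 200 kb between them. The group of 29 genes from H1-1 to H4C8 had goat antibody peaks at 21, mouse antibody peaks at 7 and all 8 genes of this cluster with a ChIP-seq peak. The group of 5 from H2BC11 to H2AC12 had goat antibody peaks at 4 and mouse antibody peaks at 2, and the group of 16 from H2BC13 to H2BC17 had them at 12 and 3. The pair H2AC1 and H2BC1 had none. In HIST2, 4 of 11 genes had a goat antibody peak, 3 a mouse antibody peak and 3 a ChIP-seq peak, and the HIST3 pair H2AC25 and H2BC26 on chromosome 1 had none.

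Positions within the genes were compared next. All 8 ChIP-seq summits lay inside a histone transcript (100%, Wilson 95% interval 67.6 to 100%). Of the 39 goat antibody summits, 15 were inside the nearest histone transcript (38.5%, 24.9 to 54.1%), 11 were upstream of it, 11 were downstream and 2 were more than 1 kb away. The median distance from the transcript was 332 bp for the upstream and 411 bp for the downstream summits. Of the 11 mouse antibody summits, 3 were inside, 3 upstream, 3 downstream and 2 over 1 kb away.

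The middle of the coding span was covered by a ChIP-seq peak in only 8 of the 20176 protein-coding genes, and 7 of these were histone genes, H1-2, H1-3, H1-4, H3C1, H3C2, HIST1H4B and H2AC20. The other gene was IER3, an immediate early gene, named here after its value was seen. Goat antibody peaks covered this point in 16 of the 65 histone genes (24.6%) and in 0.456% of all protein-coding genes, and mouse antibody peaks in 3 (4.62%) and 0.0496%. The histone coding sequence is close to the TSS, with its middle at a median of 232 bp, while the median over all protein-coding genes was 11433 bp. At a fixed 250 bp past the TSS, ChIP-seq peaks covered 8 histone genes (12.3%) of 17 protein-coding genes in all (0.0843%). Goat antibody peaks covered this position in 18 histone genes (27.7%) and in 1.54% of all protein-coding genes.

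At the TSS itself only the goat antibody list covered more than 1 histone gene. No histone TSS lay in a ChIP-seq peak, beside 0.397% of all protein-coding TSSs. At so low a share, a count of 0 of 65 does not set the histone genes apart. Goat antibody peaks covered 11 of the 65 (16.9%), beside 1.88%, and mouse antibody peaks covered 1, beside 0.332%. At the transcript end, goat antibody peaks covered 20 genes (30.8%), beside 0.922% of all protein-coding genes. Mouse antibody peaks covered 4 (6.15%), beside 0.114%, and ChIP-seq peaks 5 (7.69%), beside 0.0397%. At 500 bp past the end the goat antibody list still covered 14 histone genes (21.5%) and 0.952% of all protein-coding genes, and the ChIP-seq list covered none.

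**Figure D3:**
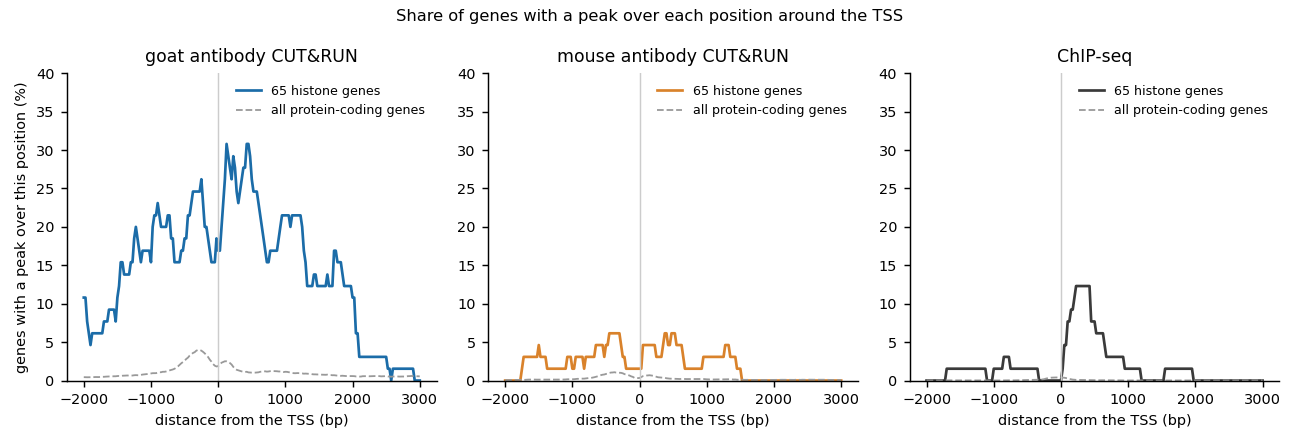
Percentage of genes with a peak over each position (vertical axis) against the distance from the TSS in bp (horizontal axis), in the direction of transcription, for the 65 histone genes (solid) and all protein-coding genes (dashed) in each list. The ChIP-seq line of the histone genes is at 0 at the TSS and highest, at 12.3%, downstream of it, whereas the goat antibody line extends over both sides and reaches 30.8%.

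Few other genes without introns had these peaks. They were chosen by exon number and not by length, and their transcripts had a median of 1150 bp, beside 492 bp for the histone genes. Of 994 other single-exon protein-coding genes, 30 had a goat antibody peak within the same window (3.02%), 9 a mouse antibody peak (0.905%) and none a ChIP-seq peak. The strongest goat antibody peaks of that group were at MGAT2, with 10.1, ENSG00000289761, with 8.31, and JUNB, with 6.47. Expression was not compared, and many single-exon genes belong to families that are silent in most tissues.

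Divergent pairs were counted as neighbouring histone genes on opposite strands with less than 1 kb between their TSSs. There were 11, of which 10 joined an H2A and an H2B gene, with 193 to 978 bp between the TSSs. At 8 of the 11 at least 1 of the genes had a goat antibody peak, but the peaks touched the sequence between the TSSs in only 4 and covered the whole of it in 2, H2BC21 with H2AC20 and H2BC4 with H2AC6. No mouse antibody or ChIP-seq peak touched this sequence in any of the 11. The shared promoters of a pair with and a pair without a peak in between are shown, from GRCh37 on the plus strand, with the CCAAT box, the TATA box and the octamer core (the letters searched above) on either strand in capitals.

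H2BC4 and H2AC6 at chr6:26124155-26124399: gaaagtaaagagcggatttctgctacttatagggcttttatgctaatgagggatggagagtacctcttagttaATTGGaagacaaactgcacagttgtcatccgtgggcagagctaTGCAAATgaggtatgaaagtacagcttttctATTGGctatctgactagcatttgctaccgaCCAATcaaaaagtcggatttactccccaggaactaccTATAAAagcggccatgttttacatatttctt
H2BC12 and H2AC12 at chr6:27114635-27114884: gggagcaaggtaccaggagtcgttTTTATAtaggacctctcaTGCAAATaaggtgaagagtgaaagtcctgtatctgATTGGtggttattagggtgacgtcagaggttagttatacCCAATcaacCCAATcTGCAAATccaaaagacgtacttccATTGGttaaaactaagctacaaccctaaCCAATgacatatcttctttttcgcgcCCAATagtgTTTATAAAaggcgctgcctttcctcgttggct

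A goat antibody peak covered all 245 bp of the first, with a fold enrichment of 3.92 and its summit in H2AC6, 108 bp past the TSS. None of the 250 bp of the second lay in a peak of any list, although H2BC12 and H2AC12 had peaks on either side of it, of which the stronger, at 7.13, ranked 464 of 8720. Both sequences held the octamer core, CCAAT boxes and a TATA box.

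Peaks at the histone genes were shared between lists to unequal extents. With an overlap of at least 1 bp, 7 of the 8 ChIP-seq peaks (87.5%) and 9 of the 11 mouse antibody peaks (81.8%) overlapped a goat antibody peak. Over the whole lists these shares were 41.4% and 32.4%. In the other direction, 9 of the 39 goat antibody peaks (23.1%) overlapped a ChIP-seq peak and 8 (20.5%) a mouse antibody peak, beside 0.837% and 8.33% of the whole list. The overlaps with ChIP-seq depended on the rule. With at least 50% of the smaller peak, or with summits within 500 bp, 4 of the 8 ChIP-seq peaks were shared with the goat antibody list, and 4 or 5 of the 39 goat antibody peaks were shared with the ChIP-seq list. No mouse antibody peak at a histone gene overlapped a ChIP-seq peak, whereas 43 of the 186 ChIP-seq peaks overlapped a mouse antibody peak somewhere in the genome. With 8 peaks, a count of 0 has a Wilson 95% interval up to 32.4%, which takes in the 23.1% of the whole list. Goat antibody peaks that overlapped peaks of both other lists numbered 3, at H3C1 and H4C1, at HIST1H4B and at H2BC21, H2AC20 and H2AC21.

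Histone genes of a family are similar in sequence, and where they share identical stretches, reads from one can align to another. The single-exon transcript of each gene with 1 kb on either side was therefore searched for 50-base words that occur more than once in GRCh37. For genes with a longer annotation this window was narrower than the one used for peaks. Such words made up 14.6% of all words. In HIST1 the share was 3.90%, with 9.59% in coding sequence and 2.90% in flanks, and in HIST2 it was 63.0%. Coding sequences were identical in HIST2H2AA3 and H2AC19, H3C14 and H3C15, H4C14 and H4C15, and H4C11 and H4C12. The 13 H4 genes encoded 2 different proteins, and 12 of them the same one, while their coding sequences differed, with a median identity of 84.1% between pairs of equal length. All 6 H1 genes encoded different proteins and had a median copied share of 0.

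More than 50% of the words were copied at 8 genes, all in HIST2, and at H3C14, H3C15, H4C14 and H4C15 every word was. These 4 had no peak in any list. Of the 8 genes, 1 had a goat antibody peak, 1 a mouse antibody peak and none a ChIP-seq peak. Both peaks lay outside the copied sequence that was found, but each extended past the searched window, where no 50-base words were counted. The 32 bases at the summit of each occurred once in GRCh37. The goat antibody peak at HIST2H2AA3, with a fold enrichment of 3.80, began 267 bp past the last copied base, and the mouse antibody peak at H2AC19, with 4.22, ended 73 bp before the first. The other 57 genes had copied shares of at most 19.7%, and of these 40 had a goat antibody peak (70.2%), 14 a mouse antibody peak and 11 a ChIP-seq peak. The part of copied sequence in the low counts of HIST2 was not tested. At the peaks themselves, a copied word of the searched windows was present in 6 of the 39 goat antibody, 1 of the 11 mouse antibody and 2 of the 8 ChIP-seq peaks. The 32 bases at the summit were copied in 2, 0 and 2 of the peaks. The ChIP-seq summits with copies were those at HIST1H4B and H3C2, with 2 places each. Those of the goat antibody list were in H2BC21, in the peak of 4.01 shared with H2AC20 and H2AC21, with 3 places, and in H2BC9, with 2.

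**Figure D4:**
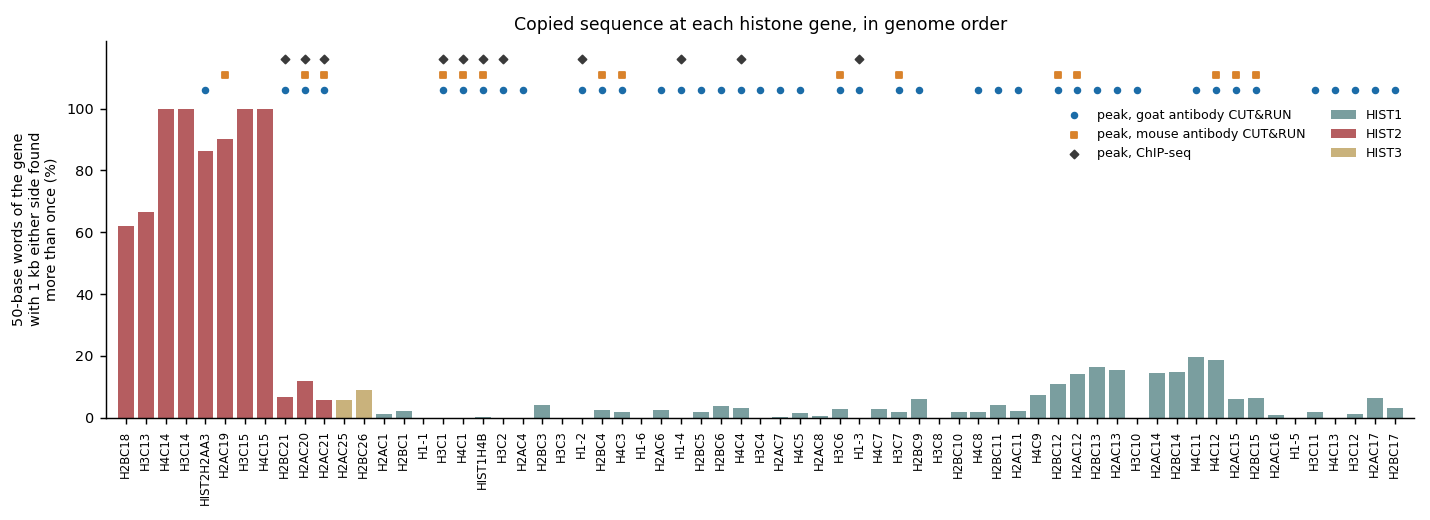
Percentage of 50-base words of each single-exon transcript with 1 kb on either side that occur more than once in GRCh37 (bars, vertical axis), in genome order. A symbol stands above each gene that has a peak in the goat antibody (circle), mouse antibody (square) or ChIP-seq (diamond) list. The 8 genes with bars over 60%, all of HIST2, carry only 2 symbols.

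Genes that act with the clustered histone genes were counted by the same rule. Of 13 histone genes outside the clusters, most of which encode replacement variants made outside S phase as well, 6 had a goat antibody peak (46.2%), 1 a mouse antibody peak and none a ChIP-seq peak. One of the 13, H4C16, encodes an ordinary H4, and it had a goat antibody peak of 3.21 and the mouse antibody peak, of 3.53. Without it, a choice made after its values were seen, 5 of 12 had a goat antibody peak and none a mouse antibody peak. The highest fold enrichments were 4.76 at H3-3A and 4.70 at H3-3B, both of which encode the replacement histone H3.3, and 4.55 at MACROH2A1. Of 20 factors of histone gene transcription and mRNA 3′ processing, 4 had a goat antibody peak, beside 21.7% of all protein-coding genes. These were CASP8AP2, a component of histone locus bodies, with 5.88, CDK2, the S phase kinase, with 4.31, the cap-binding subunit NCBP1 with 2.68 and POU2F1 with 2.24. The mouse antibody list had peaks at SYMPK, with 3.58, and at CDK2, with 3.44. NPAT, HINFP, SLBP, LSM10 and LSM11, which act at the promoters or on the 3′ ends of these genes, had no peak in any list. Of 8 histone chaperones, 3 had one, RBBP4 with 3.95, ASF1A with 3.19 and NASP with 2.92, and NASP also had a mouse antibody peak, with 3.59. None of these factors or chaperones had a ChIP-seq peak.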

How the data were processed

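Elongin A was mapped by CUT&RUN and ChIP-seq in DLD1 cells. For every list the authors mapped read pairs to hg19 (Bowtie2), dropped PCR duplicates and ran MACS2 with its defaults. No mapping quality filter is stated. Each list was used as deposited. Its fold enrichment is a ratio over the local control, the −log10 q-value is the peak caller's, and the deposited score, which is 10 times the latter, and p-value were not used. Samples of other assays were not analysed here.

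Positions were counted from 1. The annotation was GENCODE release 44 on GRCh37, with TSS, coding span and end taken from the canonical transcript. Every protein-coding gene was counted by the same rule. The depth is unknown, and Wilson intervals at 95% cover counting error only. No test was made, since no list separates replicates. Words were counted on both strands of GRCh37. The counting was tested on simulated data. Named genes were the 12 with the highest goat antibody fold enrichment, those with a mouse antibody or ChIP-seq peak (at most 12 each), H1-1, H3C1, H2AC4, testis genes and genes whose window is copied throughout. The members and lists were chosen with earlier results of these data known. Alternatives changed the q-value, fold enrichment, window, overlap and word length. Python 3.11.15, numpy 2.4.6, pandas 2.3.3, pysam 0.24.0, numba 0.67.0, biopython 1.88 and matplotlib 3.10.9 were used.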

Additional observations from a re-analysis of the deposited data

How the results depend on the processing

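No paired analysis was possible because each list is 1 table without values per replicate, and leaving out a replicate was not possible for the same reason. Requiring a fold enrichment of at least 5 gave 11 histone genes and 9 peaks in the goat antibody list and 3 genes and 3 peaks in the mouse antibody list. A q-value under 0.001 left 9 genes and 7 peaks with the mouse antibody, and the gene alone without a flank 8 and 7, where 4.22% and 6.30% of all protein-coding genes had a peak. The median fold enrichment of the goat antibody peaks, 3.92, was 6.17 with a fold enrichment of at least 5, 4.01 with a q-value under 0.001 or no flank, 3.96 with 500 bp flanks, peak centres or the coding sequence, and 3.88 with 5 kb flanks. With the coding sequence in place of the gene, 0.00% of goat antibody summits were over 1 kb away, in place of 5.13%, and this share was 11.1% with a fold enrichment of at least 5 and 2.86% with a q-value under 0.001. Goat antibody peaks shared with the ChIP-seq list fell from 9 to 4 with an overlap of at least 50% and to 5 with summits within 500 bp, and ChIP-seq peaks shared with the goat antibody list from 7 to 4 under both. With words of 100 bases, 1.47% of HIST1 and 3.36% of HIST3 sequence was copied. The other counts of histone genes in the clusters and of their peaks stayed within 1.5 times their value. At 26 named genes with a goat antibody peak, the alternatives gave the same highest fold enrichment 240 times, another value 20 times and no peak 26 times. With 5 kb flanks, H1-1, H1-6, H3C14 and H4C14 also reached a goat antibody peak, of 3.80 to 7.34. The unknown depth and the single control per list limit what an absent peak shows.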
